A study of Homo sapiens with 3 samples.

Results

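The 60 genes described here encode axon guidance ligands and receptors, and were read in parental NCI-H1975 cells, an established human lung adenocarcinoma line. They are the protein-coding genes of the ephrin, Eph receptor, semaphorin (classes 3 to 7), plexin, neuropilin, SLIT and ROBO families. They were selected by gene symbol, with earlier results of these data known. All 60 had a row among the 60880 rows of the count file, and 19046 of those rows were protein-coding genes. The study covers wild-type and anlotinib-resistant NCI-H1975 cells, by RNA-seq and by ATAC-seq, and, by RNA-seq only, resistant cells in which the AP-2 transcription factor TFAP2A was knocked down. Anlotinib, a drug taken by mouth, blocks a range of receptor kinases that include those for vascular endothelial growth factor (VEGF). Values came from 1 library, the RNA-seq replicate 2 of wild-type cells grown in serum-containing medium. Neither the resistant nor the knockdown cells were analysed here, nor the 2 ATAC-seq samples of wild-type cells, so no contrast between cell states was made and no value below has a replicate check.

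These families were named for steering growing axons, and the same signals act on vessels and epithelia. Ephrins are membrane-bound ligands of the Eph receptor tyrosine kinases, the largest family of such kinases, and a contact between cells can signal into both of them. Class 3 semaphorins are secreted and mostly reach A-type plexins through neuropilins, whereas class 4 to 6 semaphorins span the membrane and bind plexins directly. Neuropilins also bind VEGF, and SLIT proteins are secreted ligands of ROBO receptors.

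The library held 25012733 counts, so 1 count equalled 0.04 CPM (counts per 1000000 counts of the library). A gene without counts is given below as 0, which stands for a level under about 3 counts, or 0.12 CPM (the upper end of the two-sided interval is 0.1475 CPM). Intervals in parentheses are exact 95% Poisson intervals for levels and exact binomial (Clopper-Pearson) intervals for shares, and they cover counting error only. No transcript lengths were used, so an order of genes below is an order of read numbers, in which a longer transcript gives more reads, and not an order of molecules. All 7 epithelial markers had at least 4961 counts (EPCAM the fewest), and of 4 lung lineage markers NKX2-1 had 2926 counts, NAPSA 595, SFTPB 62 and SFTPC 1.

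Promoters are shown for the Eph or ephrin with the most reads in each of the 4 classes of ligand and receptor, and for EPHA3, which had 0 counts, because the study names an AP-2 factor and these genes carry the ephrin results below. Each window runs from 250 bases before to 50 bases after the RefSeq start in build GRCh38.p14, printed 5′ to 3′ on the gene's strand. Capitals mark the AP-2 motif GCCNNNGGC, which reads the same on both strands. EPHB4 lies on the minus strand (chr7:100827474-100827773), EFNB2 on the minus strand (chr13:106535613-106535912), EPHA2 on the minus strand (chr1:16156020-16156319), EFNA1 on the plus strand (chr1:155127626-155127925) and EPHA3 on the plus strand (chr3:89107371-89107670).
EPHB4: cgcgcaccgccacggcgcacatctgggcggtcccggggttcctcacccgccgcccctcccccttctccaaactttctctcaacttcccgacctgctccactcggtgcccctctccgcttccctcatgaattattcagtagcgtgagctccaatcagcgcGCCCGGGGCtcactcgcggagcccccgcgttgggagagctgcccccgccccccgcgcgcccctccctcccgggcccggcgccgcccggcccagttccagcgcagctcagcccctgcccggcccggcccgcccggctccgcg
EFNB2: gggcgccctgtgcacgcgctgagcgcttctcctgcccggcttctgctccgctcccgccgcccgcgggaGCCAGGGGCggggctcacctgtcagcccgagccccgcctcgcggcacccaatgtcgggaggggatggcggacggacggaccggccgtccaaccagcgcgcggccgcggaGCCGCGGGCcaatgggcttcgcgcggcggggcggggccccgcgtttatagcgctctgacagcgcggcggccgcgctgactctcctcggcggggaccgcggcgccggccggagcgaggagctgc
EPHA2: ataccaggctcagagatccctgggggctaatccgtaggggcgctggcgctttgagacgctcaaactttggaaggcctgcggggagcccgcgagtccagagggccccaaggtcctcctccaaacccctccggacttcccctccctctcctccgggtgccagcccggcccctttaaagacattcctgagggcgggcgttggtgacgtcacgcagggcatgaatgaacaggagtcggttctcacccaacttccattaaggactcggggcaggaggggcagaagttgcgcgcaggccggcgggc
EFNA1: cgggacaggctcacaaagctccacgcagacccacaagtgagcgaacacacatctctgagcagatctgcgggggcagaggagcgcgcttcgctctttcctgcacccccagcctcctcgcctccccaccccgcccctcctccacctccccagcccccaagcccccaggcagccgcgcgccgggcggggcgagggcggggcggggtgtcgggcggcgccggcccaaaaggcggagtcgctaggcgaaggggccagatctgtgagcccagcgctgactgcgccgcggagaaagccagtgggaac
EPHA3: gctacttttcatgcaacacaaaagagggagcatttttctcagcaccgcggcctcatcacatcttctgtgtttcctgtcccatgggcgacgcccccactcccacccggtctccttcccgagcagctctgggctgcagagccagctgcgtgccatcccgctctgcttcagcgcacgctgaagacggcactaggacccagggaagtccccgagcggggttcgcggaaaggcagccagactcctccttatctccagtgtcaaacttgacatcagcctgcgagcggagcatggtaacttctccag
The EPHB4 window held 1 match and that of EFNB2 held 2, whereas the EPHA2, EFNA1 and EPHA3 windows held none. A match is a run of letters and was not tested as a binding site.

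Of the 60 genes, 50 (83.3%) were detected, meaning 10 or more counts, against 69.7% of all protein-coding genes. At least 1000 counts, a mark chosen after the counts were seen, were reached by 20 (33.3%) against 26.6% of protein-coding genes. Their median was 435.5 counts against 247 counts over all protein-coding genes, and 36 of the 60 lay above the latter. Neither the shares nor the medians were corrected for transcript length, and its part in these differences was not tested. The 10 under the minimum were EPHA3, EPHA5, EPHA7, SEMA3D and SEMA6D at 0, EPHA8, EPHB1, SLIT3 and ROBO2 at 1 count, and SLIT1 at 7 counts. Just inside the minimum were EPHA6 with 12 counts and SLIT2 with 18 counts, and both intervals are wide. Together the 60 genes took 115201 counts, or 0.461% of the library (0.458 to 0.463).

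Reads were concentrated in few members. The 6 genes with the most reads, PLXNB2, EPHB4, SEMA3B, SEMA4B, PLXNA1 and PLXNA3, each had at least 7615 counts and together held 60.2% of the reads of the 60 genes. The 20 highest held 91.5%. Matching shares over all protein-coding genes were not computed, so no trait particular to these families is read from this. In 11 of the 13 classes with more than 1 member, the leading gene took a share of its class whose interval lay above 50%. The exceptions were class 5 semaphorins, where the 2 members were nearly level, and SLITs, with few reads. The leading gene was picked by these same counts, and in a class of 2 its share cannot fall under 50%. These shares are therefore descriptive, and their intervals do not allow for the picking.

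**Figure D1:**
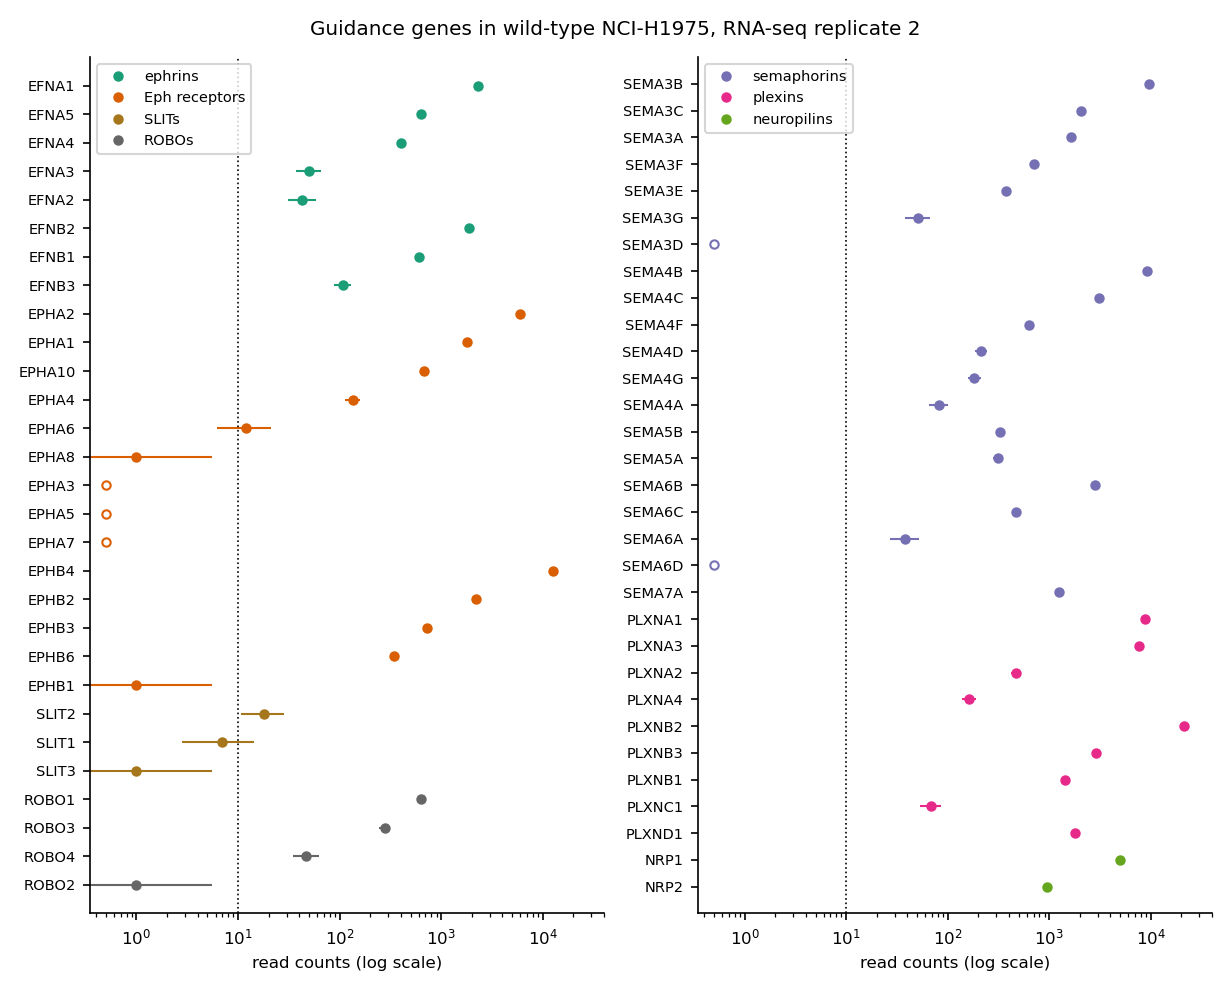
Read counts (log scale) of the 60 guidance genes in wild-type NCI-H1975 RNA-seq replicate 2, with bars for the 95% Poisson interval (running off the axis for genes at 1 count), open circles for genes at 0 counts (drawn at 0.5) and a dotted line at 10 counts. PLXNB2 and EPHB4 lie farthest to the right at 21394 and 12728 counts, and 5 genes are open circles.

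All 8 ephrins were detected, against 69.7% of protein-coding genes. At least 1000 counts were reached by 2 of them (25%), near the 26.6% of protein-coding genes. EFNA1, a ligand tethered by a lipid anchor that binds EphA receptors, had 2288 counts, or 91.5 CPM (87.8 to 95.3), and held 67.0% of the reads of A-type ephrins. EFNA5 followed with 631 counts (25.2 CPM) and EFNA4 with 405 counts (16.2 CPM). EFNA3 and EFNA2 had 50 and 43 counts, and their intervals overlap, so they are not ordered. EFNB2, a transmembrane ligand best known from arterial endothelium, had 1876 counts, or 75.0 CPM (71.7 to 78.5), and held 72.4% of the reads of B-type ephrins. EFNB1 had 608 counts (24.3 CPM) and EFNB3 had 108 counts (4.32 CPM). The ratio of EFNB1 to EFNB2 counts was 0.324 (0.295 to 0.355).

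The values of EFNA3 and EFNA4 carry an annotation limit. The count file has a separate row for the read-through gene EFNA4-EFNA3, which spans both, and that row had 0 counts. The sources used here do not give how reads that fit more than 1 gene were counted, and dropping them would lower EFNA3 and EFNA4. By RefSeq gene spans, 5 other members overlap a different protein-coding gene with reads of its own: EPHB4 overlaps SLC12A9 (3423 counts), PLXNA3 overlaps LAGE3 (1610), SEMA4G overlaps MRPL43 (1926), SEMA4D overlaps SECISBP2 (988) and PLXNC1 overlaps CEP83 (145). Whether these overlaps touched the counts was not tested.

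Eph receptors ranged from 0 to 12728 counts. Of 14 genes 9 (64.3%) were detected, close to the 69.7% of protein-coding genes. At least 1000 counts were reached by 4 (28.6%), near the 26.6% of protein-coding genes. EPHB4, a B-type receptor that pairs with EFNB2 and is best known from venous endothelium, had 12728 counts, or 509 CPM (500 to 518), above 98.9% of protein-coding genes by read number. It held 79.5% (78.9 to 80.2) of the reads of B-type receptors. EPHB2 had 2199 counts (87.9 CPM), EPHB3 had 728 counts (29.1 CPM) and EPHB1 had 1 count. EPHB6, whose kinase domain is catalytically inactive, had 346 counts, or 13.8 CPM (12.4 to 15.4). The intervals of neighbours in this order did not overlap.

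EPHA2, a receptor widely expressed in carcinomas and bound by EFNA1, had 5947 counts, or 238 CPM (232 to 244), and took 69.3% of the reads of A-type receptors. EPHA1 had 1806 counts (72.2 CPM). EPHA10, another receptor lacking kinase activity, had 684 counts, or 27.4 CPM (25.3 to 29.5), more reads than EPHA4 with 135 counts (5.40 CPM). EPHA6 had 12 counts, EPHA8 had 1 count, and EPHA3, EPHA5 and EPHA7 were at 0. Thus 4 of 9 A-type and 1 of 5 B-type receptors were under the minimum.

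Of 20 semaphorins 18 (90%) were detected, against 69.7% of protein-coding genes, and 7 exceeded 1000 counts, a share of 35% near the 26.6% of protein-coding genes. Among the secreted class 3 ligands, SEMA3B, known as a candidate tumour suppressor in lung cancer, had 9666 counts, or 386 CPM (379 to 394), which was 66.7% of the reads of its class. SEMA3C had 2057 counts (82.2 CPM), SEMA3A, the classic axon repellent, had 1630 counts (65.2 CPM) and SEMA3F, a ligand of NRP2, had 710 counts (28.4 CPM). SEMA3E, a PLXND1 ligand that needs no neuropilin, had 379 counts (15.2 CPM) and SEMA3G had 51 counts (2.04 CPM). SEMA3D was at 0, and every step in this order exceeded the counting error.

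All 6 class 4 semaphorins, which span the membrane, were detected. SEMA4B had 9135 counts, or 365 CPM (358 to 373), and SEMA4C, a PLXNB2 ligand, had 3090 counts, or 124 CPM (119 to 128). SEMA4F had 633 counts (25.3 CPM). SEMA4D, the PLXNB1 ligand first described on lymphocytes, had 214 counts (8.56 CPM) and SEMA4G had 183 counts (7.32 CPM), and these neighbours were not separated by their intervals. SEMA4A had 82 counts (3.28 CPM). In class 5, marked by thrombospondin repeats, SEMA5B and SEMA5A had 331 and 314 counts with overlapping intervals. In class 6, SEMA6B had 2828 counts (113 CPM) and held 84.7% of the reads, followed by SEMA6C with 472 counts (18.9 CPM) and SEMA6A with 38 counts (1.52 CPM), while SEMA6D was at 0. SEMA7A, the lipid-anchored member that binds PLXNC1 and integrin ITGB1, had 1235 counts, or 49.4 CPM (46.7 to 52.2).

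Plexins took 38.7% of the reads of the 60 genes, the largest part of any of the 7 families. All 9 were detected and 6 exceeded 1000 counts, against 69.7% and 26.6% of protein-coding genes. PLXNB2, a receptor for class 4 semaphorins, had 21394 counts, or 855 CPM (844 to 867), above 99.5% of protein-coding genes by read number. PLXNB3 had 2881 counts (115 CPM) and PLXNB1 had 1433 counts (57.3 CPM). PLXNA1 and PLXNA3, which transmit class 3 signals together with neuropilins, had 8808 counts, or 352 CPM (345 to 360), and 7615 counts, or 304 CPM (298 to 311). PLXNA2 had 466 counts (18.6 CPM) and PLXNA4 had 162 counts (6.48 CPM). PLXND1, best known from endothelium, had 1798 counts (71.9 CPM) and PLXNC1, the SEMA7A receptor, had 68 counts (2.72 CPM).

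NRP1, a co-receptor for class 3 semaphorins and for VEGF, had 5001 counts, or 200 CPM (194 to 206), and held 84.2% of neuropilin reads. NRP2 had 942 counts, or 37.7 CPM (35.3 to 40.1). NRP1 thus had 5.31 (4.95 to 5.70) times the reads of NRP2.

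The SLIT family had few reads. Of the 3 SLIT ligands SLIT2 alone (33.3%) was detected, against 69.7% of protein-coding genes, with 18 counts, or 0.72 CPM (0.427 to 1.14). Of 4 ROBO receptors 3 (75%) were detected, near the share of protein-coding genes. ROBO1, the main SLIT receptor outside the nervous system, had 638 counts, or 25.5 CPM (23.6 to 27.6). ROBO3, a divergent member, had 277 counts (11.1 CPM). Both lay above the 247 counts of the median protein-coding gene. ROBO2 had 1 count. ROBO4, an endothelial member, had 47 counts, or 1.88 CPM (1.38 to 2.50).

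**Figure D2:**
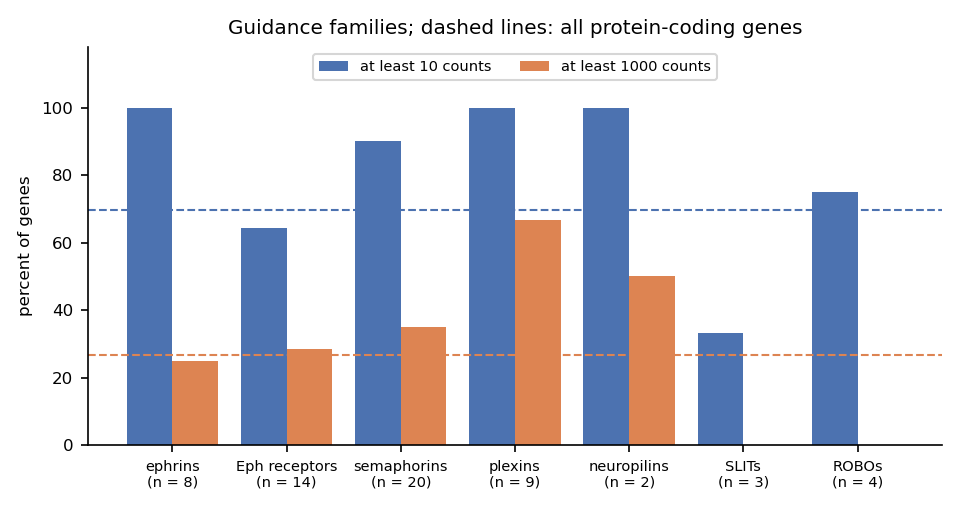
Percent of the members of each family with at least 10 counts and with at least 1000 counts in wild-type replicate 2, with dashed lines at 69.7% and 26.6% for all protein-coding genes. Ephrins, plexins and neuropilins reach 100% at the lower mark, Eph receptors 64.3%, ROBOs 75% and SLITs 33.3%.

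Known ligand and receptor pairs and pairs of paralogs, 11 in all, were set side by side as ratios of read numbers. No transcript length enters these ratios, so parity below refers to reads and not to molecules. EFNA1 had 0.385 (0.367 to 0.404) times the reads of EPHA2, and EPHB4 had 6.79 (6.46 to 7.13) times those of EFNB2. SEMA3C and its receptor PLXND1 were nearest to parity, at 1.14 (1.07 to 1.22), followed by SEMA3F to NRP2 at 0.754 (0.683 to 0.832). SEMA7A had 18.2 (14.2 to 23.5) times the reads of PLXNC1. SEMA4D had 0.149 (0.129 to 0.173) times the reads of PLXNB1, and SLIT2 had 0.0282 (0.0166 to 0.045) times those of ROBO1. Between paralogs, PLXNB2 exceeded PLXNB1 by 14.9 times (14.2 to 15.8) and PLXNA1 exceeded PLXNA2 by 18.9 times (17.2 to 20.8).

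**Figure D3:**
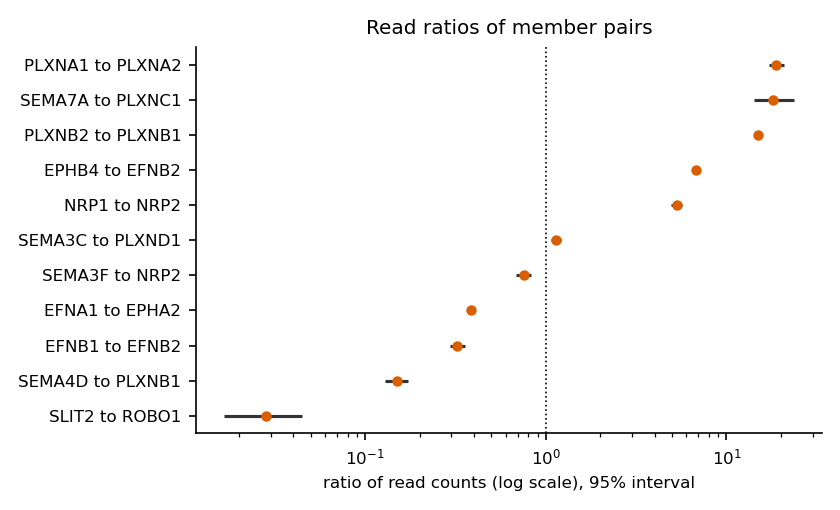
Ratio of read counts (log scale, no length correction) for 11 member pairs in wild-type replicate 2, with 95% intervals for counting error and a dotted line at 1. Ratios run from 0.0282 for SLIT2 to ROBO1 up to 18.9 for PLXNA1 to PLXNA2, and that of SEMA3C to PLXND1 lies nearest to the line.

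Several of these genes are known from endothelium, neurons or leukocytes, and markers of those cells were read beside them. Detected endothelial markers were 4 of the 9 that had a row, with CDH5 at 340 counts, EGFL7 at 58, ESAM at 18 and VWF at 10, while ERG and TEK had 1 count each and TIE1, CLDN5 and EMCN were at 0. Their sum was 428 counts. Of 8 neuronal markers 4 were detected, with SYT1 at 516 counts, TUBB3 at 276, SYP at 66 and SNAP25 at 36, and the remaining 4 had at most 3 counts (RBFOX3). Of 6 leukocyte markers CSF1R, CD14 and CD79A were detected with 731, 600 and 217 counts, whereas PTPRC had 2 counts and CD3E and LYZ 1 each. Of 6 fibroblast markers COL1A1 and COL1A2 had 7847 and 4104 counts, COL3A1 had 2, and DCN, LUM and PDGFRA were at 0. The library came from a cultured line, NCI-H1975, and not from tissue. Whether any other cells added to the reads of EPHB4, EFNB2, PLXND1, ROBO4, SEMA4D or any other member was not tested.

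Genes that relay these signals were read from 3 lists, beside a detected share of 69.7% over all protein-coding genes. In the list for Eph and ephrin signalling, 24 of 25 (96%) were detected with a median of 1362 counts, led by the lipid phosphatase INPPL1 (5717 counts), the kinase ABL1 (4307) and the adaptor CRKL (2729), and the phosphatase PTPRO was at 0. In the list for plexin and neuropilin signalling, 20 of 22 (90.9%) were detected with a median of 1008 counts. GIPC1, which binds the neuropilin tail, had 6241 counts, the actin oxidase MICAL2 had 4127 and FURIN, a protease that processes class 3 semaphorins, had 4050. In the same list FARP1 had 3 counts and DPYSL5 was at 0. In the list for SLIT and ROBO signalling, 15 of 16 with a row (93.8%) were detected with a median of 1629 counts, led by the heparan sulphate proteoglycans SDC1 (10418 counts), SDC4 (9289) and GPC1 (8961), with FLRT3 at 7. All 3 medians lay above the 247 counts of the median protein-coding gene.

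Receptors and ligands that partner with plexins and neuropilins were uneven. Of 15 such genes 10 (66.7%) were detected, near the 69.7% of protein-coding genes, with a median of 383 counts. Integrin ITGB1 led with 9959 counts, followed by VEGFA, a neuropilin ligand, with 8849 counts and the receptor kinase ERBB2 with 6380. Of the VEGF receptors that act with neuropilins, only KDR was detected, at 35 counts (1.40 CPM, 0.975 to 1.95), beside 5001 counts for NRP1, and both FLT1 and FLT4 stood at 0. The cell adhesion gene NRCAM had 1 count, and VEGFC was at 0.

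**Figure D4:**
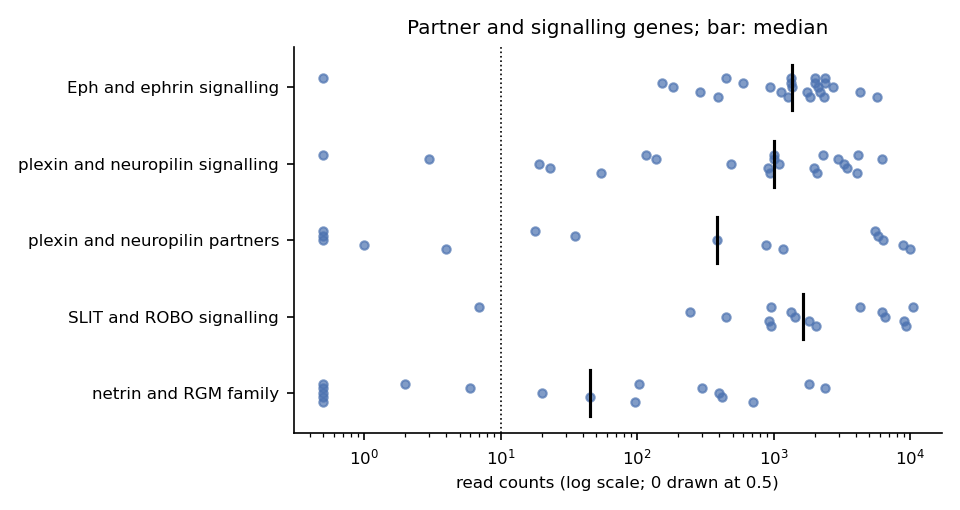
Read counts (log scale, 0 drawn at 0.5) of single genes in 4 lists of signalling and partner genes and in the netrin and RGM family, with a bar at each list's median and a dotted line at 10 counts. Medians of the 3 signalling lists lie between 1008 and 1629 counts, against 383 for partners and 45 for netrin and RGM genes.

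Promoter composition was described for the 54 genes with a RefSeq window of 300 bases, which left out EFNB3, EPHA10, NRP1, SEMA3A, SEMA6A and SEMA6B. The 44 detected members had a median of 24 CpG dinucleotides and a GC content of 68.0%. The 10 members under the minimum had medians of 19 CpG and 61.5% GC, and each held at least 7 CpG. Over all protein-coding genes with a window, the medians were 26 CpG for detected genes and 6 for those under the minimum. The windows of undetected guidance genes thus held more CpG than the median undetected gene, as in EPHA7 with 24 CpG at 0 counts and EPHA8 with 51 CpG at 1 count. A low CpG number also occurred beside many reads, as in SEMA3C with 2 CpG and 2057 counts and PLXNB2 with 14 CpG and 21394 counts.

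The AP-2 motif GCCNNNGGC occurred in 19 of 44 windows of detected members (43.2%) and in 1 of 10 windows of members under the minimum, that of EPHA8. It occurred in 28.5% of the 15238 windows of protein-coding genes, in 32.3% of those of detected genes and in 19.2% of those under the minimum. Among guidance genes with at least 1000 counts it was in 10 of 17 windows (58.8%), against 34.9% for protein-coding genes at that mark. These 10 were EPHB4, EPHB2, EFNB2, EPHA1, SEMA4C, SEMA7A, PLXNA1, PLXNA3, PLXNB3 and PLXND1. The windows of PLXNB2, SEMA3B, SEMA4B, EPHA2, EFNA1, SEMA3C and PLXNB1, also at that mark, held no match. The mark of 1000 counts was chosen after the counts were seen. The motif is rich in G and C, and the windows of these 17 members had a median GC content of 71.7% against 67.0% for protein-coding genes at that mark. The part of GC content in the motif's share was not tested.

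**Figure D5:**
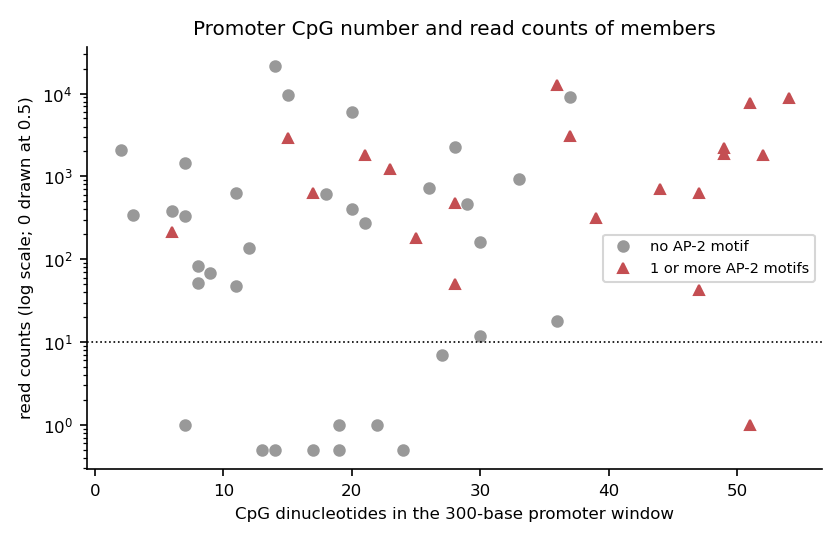
Read counts (log scale, 0 drawn at 0.5) of 54 guidance genes against the number of CpG dinucleotides in their 300-base promoter window, with triangles for windows that hold the AP-2 motif. Members under 10 counts (dotted line) range from 7 to 51 CpG, and 1 of these 10 is a triangle.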

How the data were processed

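RNA-seq read counts of 1 wild-type NCI-H1975 library, replicate 2, were used. Per the labels' protocols, RNA was extracted with Trizol and made into a directional library from 1 ug of total RNA. The deposited values are raw whole-number counts per gene made by the authors, in a file without a header that lists Ensembl identifiers. Build hg19, featureCounts, STAR and, with versions, deepTools (3.3.0), MACS2 (2.1.1.20160309) and Bowtie2 (2.3.3.1) are listed without roles, per the submitters' processing notes. How strand and reads shared between genes were handled, and which annotation release was used, is not stated in those notes as used here. Genes with antisense or overlapping neighbours are uncertain for that reason. By RefSeq spans, 39 members overlap another gene of any type. Of these, 7 members (EFNA3, EFNA4, EPHB4, PLXNA3, PLXNC1, SEMA4D and SEMA4G) overlap another protein-coding gene that has a row. Among the non-coding neighbours, PLXNB3-AS1 had 170 counts beside 2881 for PLXNB3, and SEMA6A-AS1 had 25 beside 38 for SEMA6A.

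Identifiers were matched without version to current symbols (56373 of 60880 rows, 99.8% of counts), and gene type came from a RefSeq table (GRCh38.p14). No row lacked an identifier. Counts were divided by the library total of 25012733 to give CPM. Levels have exact Poisson intervals, shares exact binomial intervals and ratios the matching conditional intervals, at 95%. With 1 library no test was made. Levels and ratios per kilobase had been planned. No transcript length was at hand, so read numbers stand in their place. Protein motifs were also planned and not analysed here. Members and lists were chosen with earlier results of these data known. Every member is named, and from each list of signalling or partner genes the 3 with the most counts and up to 4 under 10 counts. KDR, NEO1, UNC5A, UNC5B and, of the netrin and RGM genes at 0, HJV were added after their counts were seen. SRGAP2 and PECAM1, both listed, had no row that matched by name. Alternatives were other detection minimums, thinning and other totals. On simulated Poisson counts of 13274 genes, 95.0% of intervals held the simulated mean, as did 95.8% of 2000 simulated ratios. The simulated counts follow the model that the intervals assume, so this checks the code and not the spread between libraries. The code ran on Matplotlib 3.10.9, SciPy 1.17.1, NumPy 2.4.6 and pandas 2.3.3 under Python 3.11.15.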

Additional observations from a re-analysis of the deposited data

How the results depend on the processing

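The number of detected members was 55 at a minimum of 1 count, 45 at 50 counts, 48 at 1 CPM and 49 after random thinning to 50%, against 50 at 10 counts. By class, the count of detected members stayed within 1.5 times of its value except for SLITs, which went from 1 to 3 at 1 count, to 0 at 50 counts and to 0 at 1 CPM. The share of reads held by the 60 genes was 0.487% without mitochondrial genes in the total, 0.496% without the 10 genes with the highest counts and 0.501% over protein-coding genes only. After thinning, all 11 ratios stayed inside their intervals and the 10 members with the most reads were the same genes. Thinning leaves expected ratios unchanged, so this bears on counting error only. Values per kilobase were not run, for want of transcript lengths, and leaving out a replicate was not possible. No paired analysis was possible because values of 1 library alone were used here.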

Other observations

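The netrin and repulsive guidance molecule (RGM) family, another set of guidance genes, was read for comparison. Of 17 genes 10 (58.8%) were detected, with a median of 45 counts, beside 69.7% and 247 counts over all protein-coding genes and 83.3% and 435.5 counts for the 60 genes above. No test of these differences was made. The secreted netrins NTN1 and NTN4 led with 2394 and 1806 counts, followed by RGMB with 705. Their receptor NEO1 had 420 counts, UNC5B had 396 and UNC5A had 297, whereas DCC, the classic netrin receptor, was at 0 with DSCAM, UNC5D, NTNG1 and HJV.

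Guidance genes that are direct neighbours in the RefSeq order of protein-coding genes are given here with their read numbers. Other pairs of neighbouring genes were not compared. EFNA4, EFNA3 and EFNA1 follow one another with 405, 50 and 2288 counts, of which the first 2 carry the read-through limit given above. SEMA3E, SEMA3A and SEMA3D follow one another with 379, 1630 and 0 counts. ROBO2 and ROBO1 had 1 and 638 counts, and ROBO3 and ROBO4 had 277 and 47.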
